A study of Mus musculus with 19 samples.

Results

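Skeletal muscle genes were followed through mouse skin and the squamous tumours raised in it. They are 36 of the 34807 genes in the deposited count table, chosen by symbol as known parts of striated muscle. Fast fibre genes number 14, slow fibre genes 6, and 16 are shared by both fibre types. All 36 were present in the table and passed the filter on low counts, which asked for at least 5 counts in at least 1 library.

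The study compared tumours that arose after BRAFV600E was switched on in different cells of the epidermis, and RNA was sequenced from whole frozen tissue of female mice. The 19 libraries were 6 Ivl:BRAFV600E tumours, 5 K5:BRAFV600E tumours, 4 K14:BRAFV600E tumours and 4 samples of wild-type (WT) normal skin, which the study took from littermates and which serve as the control. In the tumour groups a tamoxifen-inducible Cre was driven by the promoter of Ivl, Krt5 or Krt14, so recombination was aimed at keratinocytes. The labels give an age of 7 to 20 weeks for all 19 samples, skin included. The methods of the study give a narrower range for the age at induction. Per the study, K5 and K14 mice carried 1 tumour on the back where tamoxifen had been applied, whereas Ivl mice had lesions on the back, paws, ears and lips; the site of each sequenced tumour is not given in the sources used here. The labels do not say how many animals the libraries of a group came from, so p-values measure only the spread between these libraries. K5 and K14 tumours were merged for the comparisons with skin, as in the study.

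Mouse skin lies on the panniculus carnosus, a thin sheet of striated muscle, and a full-thickness sample can carry some of it. A striated muscle fibre contracts when myosin heads of the thick filament pull on actin of the thin filament, under the control of troponin and of calcium released from the sarcoplasmic reticulum. Fast and slow fibres build the same machine from different isoforms of myosin, troponin and calsequestrin, and these isoforms are commonly used as markers of fibre type.

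The libraries held between 45715309 and 72609771 counts. Genes at 0 counts numbered 3242 to 3670 in the skin libraries and 5562 to 10882 in the tumours. The part of this difference in the results was not tested. The deposited counts had already been adjusted for batch by the authors, and 4 libraries, Ivl 1, 2, 3 and K5 1, bear a mark of that step: for 96.6% of the 13954 genes with a mean above 2 CPM (counts scaled to a common library size of 1e6) their average lay within 0.1 log2 of the average of the other 15 libraries, skin included. Of the 31 muscle genes above that level, 11 (35.5%) lay within that distance. For these 31, the average of the 4 differed from the average of the other 15 by a median of -0.11 log2 and from the average of the other 11 tumours by a median of 3.29 log2. Titin had 887 CPM as the average of the 4, 1026 CPM over the other 15 libraries and 10.4 CPM over the other 11 tumours. The muscle gene levels of these 4 tumours thus average to a level to which normal skin contributed, and counts of genes called are given with all 19 libraries and with the 15 alone (3 Ivl, 8 K5/K14 and 4 skin). Ranges and medians of the Ivl tumours include Ivl 1, 2 and 3 of this set, and those of the K5/K14 tumours include K5 1.

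Normal skin was rich in transcripts of striated muscle. The 36 genes took 1.23%, 3.07%, 1.30% and 0.772% of all counts in skin 1 to 4. Without Tpm2, a tropomyosin of the thin filament with at least 231 CPM in every library, the other 35 genes took 0.733% to 2.97% of counts in skin and 0.00352% to 1.04% in the 15 tumours. Among the 11 tumours outside the set of 4 the highest values were 0.122% in K14 1 and 0.0898% in Ivl 6, followed by 0.0308% in K5 3 and 0.0173% in K5 4, and the remaining 7 lay at or below 0.00770%. Within the set of 4, Ivl 2 reached 1.04% and Ivl 3 reached 0.459%, whereas Ivl 1 and K5 1 stood at 0.00352% and 0.00586%. Muscle transcripts thus varied from library to library within each tumour group. In whole tissue, fewer muscle fibres and less muscle RNA per fibre cannot be told apart.

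**Figure D1:**
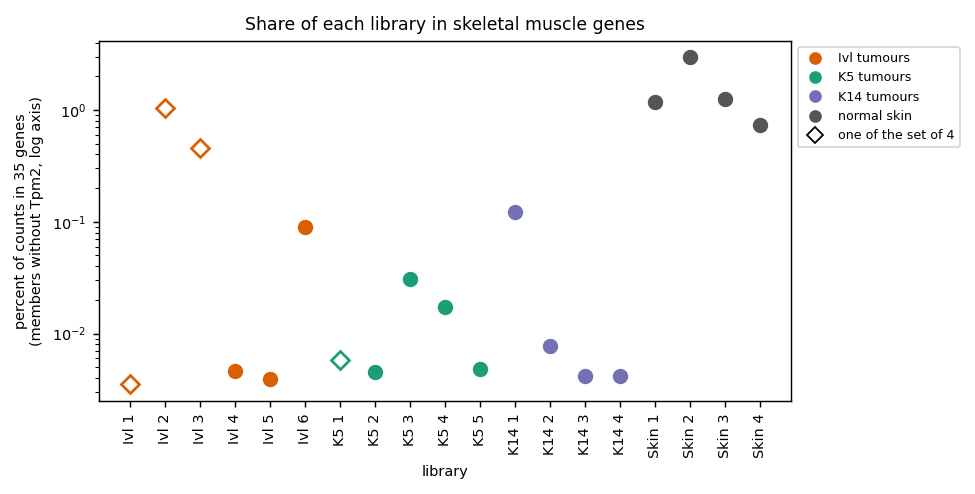
Percent of each library's counts that fell on 35 skeletal muscle genes (the members without Tpm2), on a log axis, with 1 point per library, filled circles for the 15 libraries and open diamonds for the set of 4. The skin libraries lie between 0.733% and 2.97%, and of the tumours only Ivl 2, at 1.04%, lies within that range.

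Per kilobase of exon Acta1 stood highest of the 36 genes in skin, and by plain CPM titin did. Acta1, the skeletal muscle actin (chr8:123891769-123894751 on GRCm38), stood at 790, 1941, 1272 and 715 CPM in skin 1 to 4. In the 9 K5/K14 tumours it ran from 0.0760 CPM over a median of 2.24 to 151 CPM, and in the 6 Ivl tumours from 0.108 over 62.7 to 1122 CPM. The K5/K14 range therefore lay wholly under skin, K14 1 being the highest of them, whereas Ivl 2 stood among the skin libraries. Ivl 4, 5 and 6, outside the set of 4, had 1.65, 0.609 and 124 CPM.

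Myh4, the myosin heavy chain of the fastest fibres (chr11:67238029-67260446), gave 657, 2471, 1203 and 751 CPM in skin 1 to 4. Its level ran from 0 over a median of 0.0318 to 55.2 CPM in K5/K14 tumours, and from 0 over 16.8 to 1507 CPM in Ivl tumours. Outside the set of 4, Ivl 4, 5 and 6 had 0.0198, 0 and 33.7 CPM. Here K5 3 was the highest of the K5/K14 group and Ivl 2 lay among the skin libraries, far above Ivl 3 at 98.9 CPM. Ttn, which encodes the giant spring protein titin (chr2:76703980-76982547), had 1825, 6174, 1158 and 731 CPM in skin 1 to 4, 0.407 to 71.8 CPM in K5/K14 tumours (median 1.19) and 0.415 to 2269 CPM in Ivl tumours (median 12.4). Titin stood at 1.37, 1.34 and 23.4 CPM in Ivl 4, 5 and 6. Per kilobase of exon, Acta1 averaged 768 CPM in skin, Myh4 211 and titin, whose exons add up to 116825 bases, 21.2. Mylpf and Tnnt3 also lay above Myh4 on that scale.

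The bases before the start sites of Acta1, Myh4 and Ttn are shown because these genes carried much of the muscle signal of skin, and those of Casq2 because it did not fall with them. Each is the 250 bases upstream of the start that RefSeq annotates on GRCm38.p6, 5′ to 3′ along the gene's strand, at chr8:123894776-123895025 (minus strand), chr11:67237562-67237811 (plus), chr2:76982548-76982797 (minus) and chr3:102086165-102086414 (plus). Capitals mark matches, on either strand, to the MEF2 site, the CArG box and the TATA box (TATAAA), which can overlap each other.
Acta1: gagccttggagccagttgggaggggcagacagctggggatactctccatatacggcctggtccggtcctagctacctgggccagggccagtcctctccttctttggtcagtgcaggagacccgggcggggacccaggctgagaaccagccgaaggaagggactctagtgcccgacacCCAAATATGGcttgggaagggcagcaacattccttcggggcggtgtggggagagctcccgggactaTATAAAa
Myh4: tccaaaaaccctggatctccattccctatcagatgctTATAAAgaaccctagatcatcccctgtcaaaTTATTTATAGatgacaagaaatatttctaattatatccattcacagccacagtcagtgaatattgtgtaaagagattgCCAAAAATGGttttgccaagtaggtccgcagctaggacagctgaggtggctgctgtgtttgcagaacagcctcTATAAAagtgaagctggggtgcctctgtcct
Ttn: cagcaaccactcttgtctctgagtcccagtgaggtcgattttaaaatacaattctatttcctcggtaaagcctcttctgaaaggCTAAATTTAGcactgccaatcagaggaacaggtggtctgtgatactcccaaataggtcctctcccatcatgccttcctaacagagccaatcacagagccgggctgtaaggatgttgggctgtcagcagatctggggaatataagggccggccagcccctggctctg
Casq2: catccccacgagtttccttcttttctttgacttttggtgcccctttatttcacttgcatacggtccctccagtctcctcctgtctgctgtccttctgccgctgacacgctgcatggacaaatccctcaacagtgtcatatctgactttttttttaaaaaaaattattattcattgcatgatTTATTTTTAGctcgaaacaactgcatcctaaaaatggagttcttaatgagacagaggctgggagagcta
Acta1 held a CArG box 73 bases and a TATA box 7 bases before the start, Myh4 held a MEF2 site at 182 and a CArG box at 104 bases, and Ttn and Casq2 held a MEF2 site each. RefSeq promoters were found for 29 of the 36 genes, and 6 of them (20.7%) held a MEF2 site against 1.73% of all 27025 genes. A CArG box was found in 3 (10.3% against 1.4%), TATAAA in 5 (17.2% against 13.0%) and the E box CANNTG in 24 (82.8% against 66.0%). The matches describe letters in these windows and were not tested further.

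The comparison of K5/K14 tumours with skin asks which muscle genes the tumours had less or more of. In K5/K14 tumours 28 of the 36 genes fell and 1 rose (edgeR's quasi-likelihood test, Benjamini-Hochberg adjusted over 32031 genes). Over all genes 38.9% were called lower and 23.2% higher in this comparison. The median of the 36 log2 fold changes was -4.48, beside -0.60 over all genes tested. With the 15 libraries alone, 27 fell and 1 rose, against 42.3% and 23.9% of 31971 genes, and the median was -4.43. The member lost was Mb, myoglobin, whose adjusted p went from 0.037 to 0.057.

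**Figure D2:**
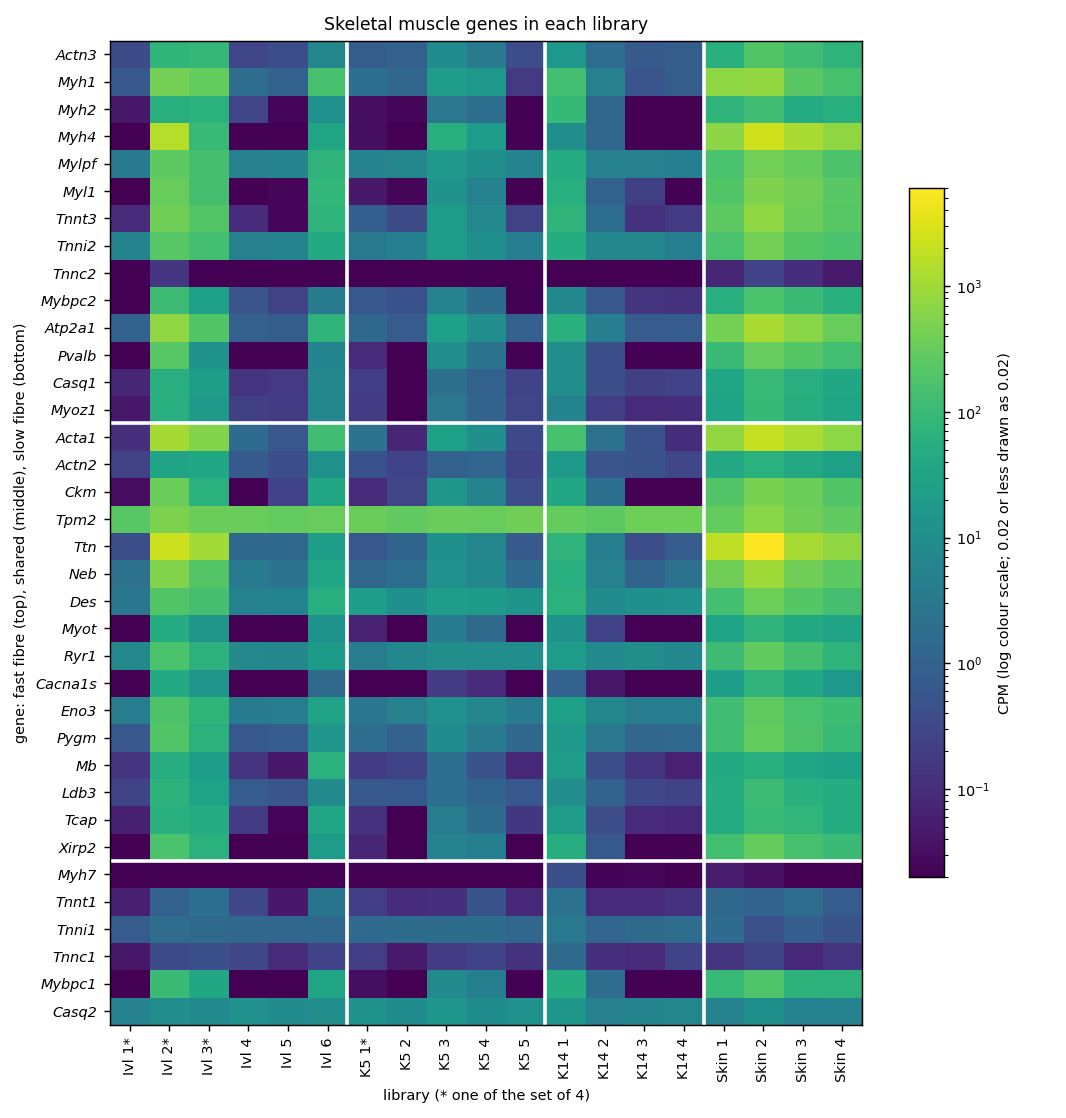
Level of each of the 36 genes (rows) in each of the 19 libraries (columns) in CPM on a log colour scale, with values of 0.02 CPM or less drawn as 0.02 and the set of 4 starred. Fast and shared genes are high in the 4 skin libraries and in Ivl 2 and Ivl 3, lower in Ivl 6 and K14 1, and near the bottom of the scale in most other tumours, while Tpm2 and Casq2 hold about the same colour throughout.

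Of the 8 genes of the thick filament, 5 fell in K5/K14 tumours. Myh4 fell by 7.03 ± 2.20 (SE) on the log2 scale (adjusted p = 0.011), Myh1, another fast myosin, by 4.49 ± 1.56 (adjusted p = 0.020), and Mylpf, the regulatory light chain of fast fibres, by 4.48 ± 0.93 (adjusted p = 0.00068). Myl1, the fast essential light chain, and Mybpc2, the fast myosin-binding protein C, were the other two. Myh2, the myosin heavy chain of type IIA fibres, gave -2.75 ± 1.81 on that scale (adjusted p = 0.19). Its skin values were 73.5, 124, 46.9 and 54.7 CPM, and those of K5/K14 tumours ran from 0 over 0.0318 to 94.1 CPM in K14 1. The K5/K14 tumours other than K14 1 had at most 2.98 CPM, so K14 1 alone overlapped skin.

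Mylpf itself gave 158, 419, 301 and 179 CPM in skin 1 to 4. It ran from 4.66 over 6.03 to 46.7 CPM in K5/K14 tumours and from 3.84 over 40.0 to 263 CPM in Ivl tumours. Ivl 4, 5 and 6, outside the set of 4, had 4.80, 5.60 and 74.5 CPM. No tumour was below 3.84 CPM, so this gene, like Tnni2 with a lowest value of 3.24 CPM, kept a low level where Myh4 and Ckm were at or near 0. For both genes the K5/K14 values did not overlap those of skin.

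The thin filament gave a mixed picture, with 5 of 9 genes lower and 1 higher in K5/K14 tumours. Acta1 fell by 5.77 ± 1.85 on the log2 scale (adjusted p = 0.013), Neb, the ruler protein nebulin, fell by 5.72 ± 1.32 (adjusted p = 0.0015), and Tnni2, the fast inhibitory troponin, fell by 4.30 ± 0.93 (adjusted p = 0.00092). Tnnt3, the fast troponin T, had 266, 728, 350 and 225 CPM in skin 1 to 4, 0.120 to 77.3 CPM in K5/K14 tumours (median 0.874) and 0.0234 to 381 CPM in Ivl tumours (median 36.1). Ivl 4, 5 and 6, outside the set of 4, had 0.0992, 0.0234 and 72.0 CPM of it. In K5/K14 tumours Tnnt3 fell by 5.02 ± 1.75 on the log2 scale (adjusted p = 0.020), with K14 1 again the highest tumour of that group and below every skin library. Tpm2 differed by -0.29 ± 0.20 (adjusted p = 0.21), at 403 ± 169 CPM (SD, n = 4) in skin and 329 ± 48.1 CPM (SD, n = 9) in K5/K14 tumours.

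Tnnc2, the fast troponin C, stood at no more than 0.247 CPM even in skin, at 6, 22, 11 and 5 counts in skin 1 to 4 and 0 or 1 count in every K5/K14 tumour. In the GENCODE M21 annotation 74.0% of its exon bases are overlapped by Ube2c on the other strand, and the strand setting of the counting is not given in the sources used here, so its counts are uncertain. Tnnc2 is still among the thin filament and fast genes called lower in K5/K14 tumours, and in Ivl tumours with the 15 libraries. Within the 15 it passed the filter through skin alone, so its call there adds no support. Other members overlapped by a gene of the other strand over at least 20.0% of their exons were Mb (31.9%), Atp2a1 (21.9%) and Cacna1s (20.0%). The myosin heavy chain genes are similar enough in sequence to share reads, as is Acta1 with the other actins, so their shares carry that uncertainty too.

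All 9 genes of the Z disc, titin and the intermediate filament fell in K5/K14 tumours. Ttn fell by 7.83 ± 1.89 on the log2 scale (adjusted p = 0.0021), and Actn3, the fast fibre actinin of the Z disc, by 4.88 ± 1.28 (adjusted p = 0.0037). Des encodes desmin, the intermediate filament of muscle, and had 140, 368, 218 and 147 CPM in skin 1 to 4. It ran from 8.69 over 13.7 to 64.9 CPM in K5/K14 tumours and from 2.77 over 32.1 to 191 CPM in Ivl tumours. Ivl 4, 5 and 6, outside the set of 4, had 5.22, 5.79 and 58.4 CPM. Desmin fell by 3.4 ± 0.83 on the log2 scale in K5/K14 tumours (adjusted p = 0.0023), where no library was at 0, and smooth muscle also makes it.

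Of 6 genes of excitation and calcium handling, 5 fell in K5/K14 tumours. Cacna1s, the voltage sensor of the muscle calcium channel, fell by 7.92 ± 1.67 on the log2 scale (adjusted p = 0.00078), from 24.1, 72.2, 38.5 and 16.8 CPM in skin 1 to 4 to 0 to 1.05 CPM in the tumours. Ryr1, the calcium release channel, fell by 3.96 ± 0.69 (adjusted p = 0.00015), and Atp2a1, the calcium pump of fast fibres, fell by 5.78 ± 1.54 (adjusted p = 0.0042). Pvalb, the calcium buffer parvalbumin of fast fibres, fell by 6.28 ± 1.86 (adjusted p = 0.0081). All 5 values stayed past the threshold with the 15 libraries.

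All 4 genes of energy supply fell with 19 libraries and 3 with the 15. Ckm, the muscle creatine kinase, gave 194, 467, 346 and 198 CPM in skin 1 to 4, 0 to 38.8 CPM in K5/K14 tumours (median 0.389) and 0 to 349 CPM in Ivl tumours (median 18.2). Ckm stood at 0, 0.258 and 36.1 CPM in Ivl 4, 5 and 6. Its log2 fold change in K5/K14 tumours was -5.42 ± 1.77 (adjusted p = 0.014), and again K14 1 was the highest tumour of that group. Pygm, the muscle glycogen phosphorylase, fell by 5.32 ± 1.2 on the log2 scale and Eno3, the muscle enolase, by 4.44 ± 0.86 (adjusted p = 0.0013 and 0.00037). For 29 of the 36 genes, all 9 K5/K14 tumours lay under all 4 skin libraries, which was so for 24.6% of all genes. The 7 that overlapped were Myh2, Tpm2 and 5 of the slow fibre genes.

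The comparison of Ivl tumours with skin gave no call with all 19 libraries. By edgeR's adjusted p, 0 of the 36 genes were lower and 0 higher, 1 (Ryr1) had an unadjusted p under 0.05, and DESeq2 called 1 lower. With Ivl 2 left out, edgeR called 6 lower. Over all genes, 15.5% were called lower and 20.4% higher by edgeR with all 19 libraries. No such share is at hand for DESeq2 or for the fit without Ivl 2. The median log2 fold change of the 36 was -1.83 beside -0.46 over all genes, and 33 of the 36 values were negative. Ivl 2 and Ivl 3, both of the set of 4, held most of the muscle transcripts of this group, followed by Ivl 6, and for 0 of the 36 genes did all 6 Ivl tumours lie under all skin libraries, beside 9.01% of all genes.

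With the 15 libraries, where Ivl 4, 5 and 6 remained, 15 genes fell in Ivl tumours and 0 rose, while 32.7% of all genes were called lower and 22.2% higher. The 15 of 36 called lower stood not far above that share of all genes. The median was -3.79 against -0.66 over all genes. Ttn fell by 8.14 ± 2.38 on the log2 scale (adjusted p = 0.012), Ryr1 by 3.75 ± 0.55 (adjusted p = 6.9e-05), Mylpf by 3.22 ± 1.15 (adjusted p = 0.030) and Des by 3.24 ± 0.98 (adjusted p = 0.014). Acta1, at 1.65, 0.609 and 124 CPM in Ivl 4, 5 and 6, gave a log2 value of -4.81 ± 2.63 (adjusted p = 0.13), and Myh4, at 0.0198, 0 and 33.7 CPM, one of -6.82 ± 3.01 (adjusted p = 0.070). Ivl 6 was the highest of the 3 for 32 of the 36 genes. The number of genes called lower was 29 without Ivl 6 and 9 without either Ivl 4 or Ivl 5. No share of all genes is at hand for these fits, so these counts cannot be read as results about the muscle genes. In these 3 tumours, 28 of the 36 genes lay wholly under skin, as did 35.4% of all genes.

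**Figure D3:**
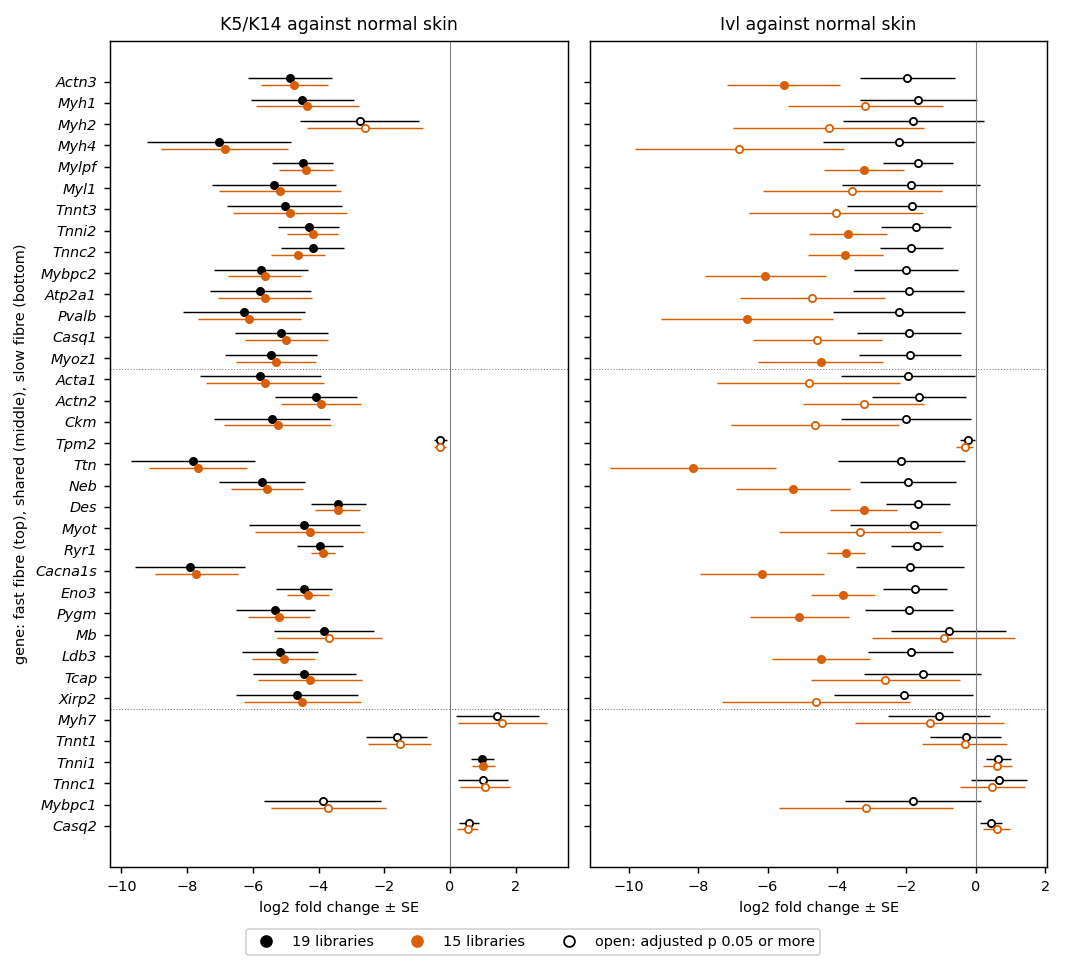
Log2 fold change with its standard error for each of the 36 genes in K5/K14 tumours (left) and Ivl tumours (right) against normal skin, with 19 libraries in black and 15 in orange, filled where the adjusted p was under 0.05. The K5/K14 values barely move between the library sets (medians -4.48 and -4.43), while the Ivl values move from a median of -1.83 to -3.79.

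Between the tumour groups, 1 of the 36 genes differed with 19 libraries, Cacna1s, which was higher in Ivl tumours by 6.02 ± 1.53 on the log2 scale (adjusted p = 0.048). The number called higher was 0 without any 1 skin library or K5 tumour. It was also 0 without any 1 of K14 2, 3 and 4 and Ivl 2, 3 and 6. It was 4 without Ivl 1, 3 without Ivl 4, 4 without Ivl 5 and 13 without K14 1, and DESeq2 gave 12. No share of all genes is at hand for these fits, so these counts cannot be read as results about the muscle genes. The values of Cacna1s were 44.7 and 14.6 CPM in Ivl 2 and Ivl 3 of the set of 4, and 0 to 1.54 CPM in the other 4 Ivl tumours. In this comparison 2.36% of all genes were called, and 1 of 36 is near that share. With the 15 libraries edgeR called 0 of the 36, 0 had an unadjusted p under 0.05, and 0.410% of all genes were called. The median log2 fold change of the 36 went from 2.86 to 0.50, and the value of Cacna1s to 1.56 ± 1.34 (adjusted p = 0.73). For the other key genes the 19-library values were 3.83 for Acta1, 3.41 for Ckm, 4.81 for Myh4, 5.68 for Ttn, 3.18 for Tnnt3, 2.80 for Mylpf, 1.72 for Des, 1.32 for Tnnt1 and 0.95 for Myh2, and the 15-library values 0.81, 0.62, 0.04, -0.48, 0.84, 1.16, 0.18, 1.2 and -1.66.

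K5 and K14 tumours did not differ in any of the 36 genes by edgeR's adjusted p, with 0.0% of all genes called with 19 libraries and 0.0532% with 15. DESeq2 also called 0, and 1 gene, Myh7, had an unadjusted p under 0.05. The log2 fold changes of K5 against K14 were -2.28 ± 2.05 for Acta1, -1.19 ± 2.01 for Ckm, -0.75 ± 1.07 for Mylpf, -1.78 ± 1.99 for Tnnt3, -2.26 ± 1.95 for Ttn and -0.42 ± 0.99 for Des. Each of these turned positive without K14 1, which was the highest K14 tumour for 35 of the 36 genes. Myh4 went the other way at 2.35 ± 2.49, and Myh2 and Tnnt1 had -4.60 ± 2.19 and -1.64 ± 1.08. The intervals are wide, and differences of the size of these errors were not detectable.

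Fast and slow fibre genes were counted apart. In K5/K14 tumours 13 of 14 fast genes fell, with a median log2 fold change of -5.08, and 15 of 16 shared genes, with a median of -4.55. The 13 include Tnnc2, whose counts are uncertain and which passed the filter through skin alone within the 15 libraries. Of 6 slow genes 0 fell and 1 rose, with a median of 0.79. Over all genes 38.9% were called lower and 23.2% higher, so 1 of 6 risen is not above the share of all genes. Over the 15 libraries the counts were 13, 14 and 0 lower, beside 42.3% of all genes. In Ivl tumours 7 fast, 8 shared and 0 slow genes fell with the 15 libraries, beside 32.7% of all genes. Tnni1, the slow inhibitory troponin, was the gene that rose in K5/K14 tumours, by 0.99 ± 0.35 on the log2 scale (adjusted p = 0.019). It averaged 0.877 ± 0.547 CPM (SD, n = 4) in skin and 1.74 ± 0.579 CPM (SD, n = 9) in K5/K14 tumours, and its values overlapped, since skin 1 had 1.65 CPM and the lowest K5/K14 tumour 1.2 CPM.

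Of the 6 slow genes, Myh7, Tnnt1, Tnni1 and Tnnc1 did not exceed 3.18 CPM in any library, whereas Mybpc1 and Casq2 stood higher. Myh7, the slow myosin heavy chain, had 4, 3, 0 and 0 counts in skin 1 to 4, at most 1 count in 14 of the 15 tumours and 22 counts (0.442 CPM) in K14 1. Tnnt1, the slow troponin T, had 1.32, 1.12, 1.80 and 0.780 CPM in skin 1 to 4, 0.0864 to 2.29 CPM in K5/K14 tumours (median 0.113) and 0.0469 to 2.64 CPM in Ivl tumours (median 0.674). Its log2 fold change was -1.62 ± 0.92 in K5/K14 tumours (adjusted p = 0.13) and -0.30 ± 1.02 in Ivl tumours (adjusted p = 0.82), with K14 1, Ivl 6 and Ivl 3 above every skin library. Mybpc1, the slow myosin-binding protein C, which fast fibres also make, averaged 106 CPM in skin and gave -3.88 ± 1.78 on the log2 scale in K5/K14 tumours (adjusted p = 0.066).

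Casq2, the calsequestrin of slow and heart muscle, was at 5.2, 11, 5.18 and 5.48 CPM in skin 1 to 4 and at 4.82 to 15.5 CPM in the 15 tumours. It was as high in Ivl 4, at 11.6 CPM, where Ckm had 0 counts, as in the skin with most muscle. Its log2 fold change was 0.58 ± 0.31 in K5/K14 tumours (adjusted p = 0.10). Tnnc1, the slow troponin C, did not exceed 1.53 CPM in any library.

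**Figure D4:**
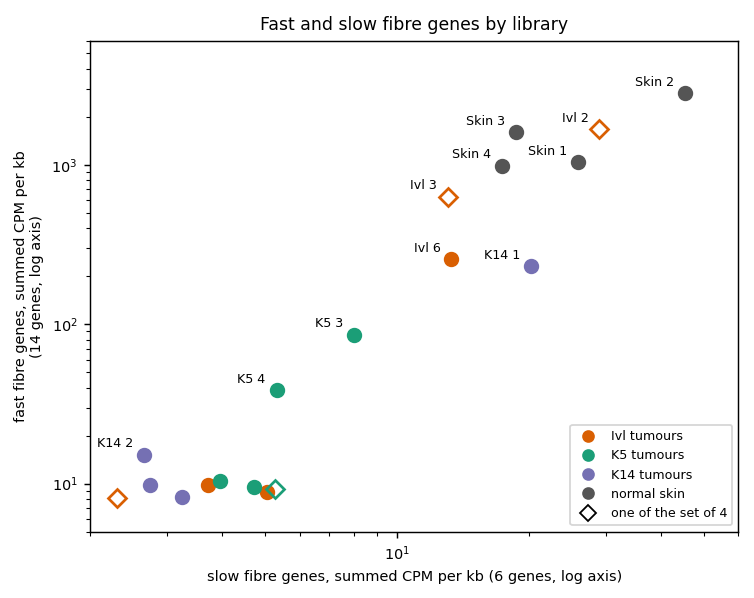
Summed CPM per kilobase of exon over the 14 fast fibre genes (vertical) and the 6 slow fibre genes (horizontal), both on log axes, with 1 point per library and open diamonds for the set of 4. Skin libraries lie at 988 to 2808 on the fast axis and 17.4 to 45.2 on the slow axis, and the tumours without much muscle gather near 8 to 15 and 2 to 5. In skin the slow axis is mostly Mybpc1, which fast fibres also make, at a mean of 23.4. Casq2 averages 2.46 there and every other slow gene 0.570 or less.

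The fast share of an isoform pair, taken as the fast gene's counts per exon length over fast plus slow in libraries with at least 20 counts for the pair, was compared with skin by exact two-sided permutation tests adjusted over the 11 tests that could be made. For troponin I it was 99.8% ± 0.168 (SD, n = 4) in skin, 90.8% ± 4.88 (SD, n = 9) in K5/K14 tumours (exact permutation adjusted p = 0.015) and 95.5% ± 4.52 (SD, n = 6) in Ivl tumours (exact permutation adjusted p = 0.042). For calsequestrin it was 91.7% ± 1.88 in skin, 11.4% ± 14.5 in K5/K14 tumours (exact permutation adjusted p = 0.015) and 37.2% ± 40.8 in Ivl tumours (exact permutation adjusted p = 0.035). The slow partners themselves did not fall: Ivl 4, which had 0 counts of Ckm, had 1.39 CPM of Tnni1 and 11.6 CPM of Casq2. In K5/K14 tumours Tnni2 and Casq1, the fast calsequestrin, had been called lower in these same libraries, and Tnni1 and Casq2 had not. The lower shares there follow from those values and add no independent support. Where muscle counts are few, the shares cannot be read as fibre type. Within the 15 libraries the Ivl tumours differed from skin by -6.70 (troponin I) and -74.1 (calsequestrin) percentage points, beside -4.30 and -54.5 with all 19, and 3 tumours against 4 skin samples cannot pass the threshold, since the smallest exact permutation p they allow is 0.057. The call for troponin I in Ivl tumours was lost without any 1 of Ivl 1, 3, 4, 5 and 6 (exact permutation adjusted p = 0.063 to 0.070), and stood at 0.052 without any 1 of K5 1, 3 and 4 and K14 1 and 2, whose removal changed the other p-values adjusted with it. With any 1 skin library left out, neither Ivl call could have passed at the number of samples left.

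For troponin T the fast share was 99.7% ± 0.119 in skin and 94.9% ± 5.54 in the 5 K5/K14 tumours with enough counts (exact permutation adjusted p = 0.042). Leaving out K5 1, of the set of 4, moved the difference from -4.79 to -2.42 percentage points. The p was already the smallest that 5 tumours against 4 skin samples allow, so the call could not have passed with any 1 of these libraries left out. In the K5/K14 tumours outside the set it lay between 95.1% and 99.6%. Tnnt3 had been called lower in K5/K14 tumours and Tnnt1 had not, so this share is not independent of those results. For the myosin heavy chains Myh1, Myh2 and Myh4 against Myh7 it was 96.9% or more in every library with enough counts, and no difference was found (exact permutation adjusted p = 0.22 and 0.64). For myosin-binding protein C it was 53.0% ± 10.5 in skin and 43.8% ± 31.2 in K5/K14 tumours (exact permutation adjusted p = 0.65). Troponin C could be tested in the Ivl comparison only, with 2 libraries on each side, and rests on the uncertain Tnnc2.

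Within the fast myosins, libraries differed in make-up. By counts per exon length over Myh1, Myh2, Myh4 and Myh7, Myh4 made up 47.6%, 74.7%, 81.9% and 79.9% in skin 1 to 4, and Myh1 47.9%, 22.1%, 15.4% and 15.2%. Among the 6 tumours with most counts over these genes, Myh4 led in K5 3 (70.6%), K5 4 (53.8%) and Ivl 2 (77.2%), whereas Myh1 led in Ivl 6 (76.7%), Ivl 3 (65.8%) and K14 1 (59.1%). K14 1 also had the highest share of Myh2, 36%, against 2.69% to 4.90% in skin. Myh2, Myh1 and Myh4 lie side by side in that order on chr11, between Myh2 at chr11:67171027-67197517 and Myh4.

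**Figure D5:**
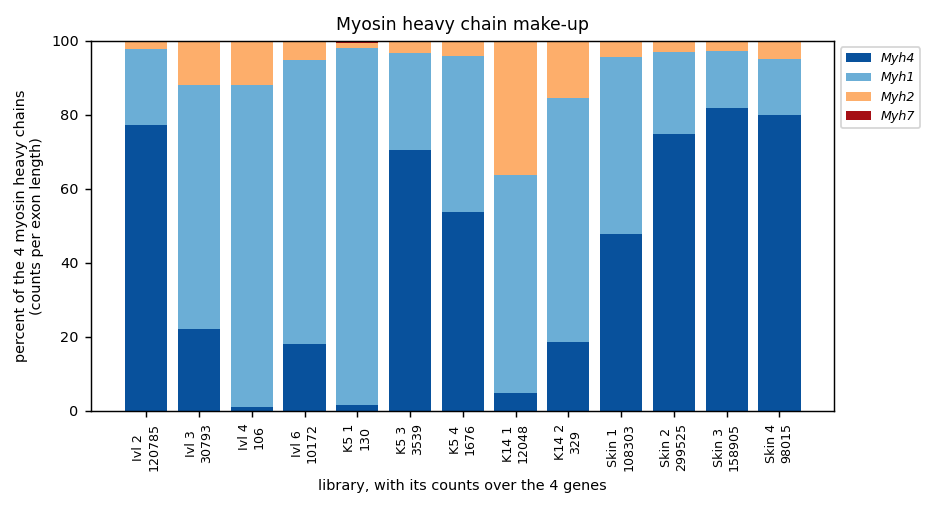
Make-up of the myosin heavy chains in the 13 libraries with at least 100 counts over the 4 genes, as percent of counts per exon length, with the counts under each library's name. Myh4 takes 74.7% to 81.9% in skin 2 to 4 and 4.76% in K14 1, and Myh7 is too small to see.

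The ratio of the longest transcript to the actin also differed between libraries. Titin over Acta1, in CPM, was 2.31, 3.18, 0.910 and 1.02 in skin 1 to 4, 2.02 and 1.78 in Ivl 2 and Ivl 3, and 0.189, 0.425, 0.626 and 0.475 in Ivl 6, K5 3, K5 4 and K14 1. Those 4 tumours outside the set therefore had less titin per actin than any skin library. Nebulin over Acta1 did not part them, at 0.271 to 0.692 in the same 4 tumours and 0.311 to 0.517 in skin. Myoglobin over Acta1 was 0.499 in Ivl 6, 0.139 in K14 1 and 0.0764 in K5 3, above the skin range of 0.0257 to 0.0553, and 0.0487 in K5 4, within it.

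Rn7sk, a small nuclear RNA without a poly(A) tail, was read as a measure of library make-up. It stood at 1374 to 2135 CPM in skin, at 1239 and 814 CPM in Ivl 2 and Ivl 3, and at 2.21 to 15.9 CPM in the other 13 tumours, including Ivl 6 and K14 1. Ivl 2 and Ivl 3 belong to the set of 4, whose averages bear the mark of the batch step. Their Rn7sk values therefore cannot be read as library make-up alone. Skin 2, the library with the highest value of 33 of the 36 genes, had the lowest sum over 8 fibroblast genes, 861 CPM against 3332 to 18654 CPM in the other skin libraries. The part of Rn7sk-rich libraries and of skin 2 in the results was not tested.

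Further genes of striated muscle were counted as well. Of 35 other skeletal muscle genes, 31 fell and 0 rose in K5/K14 tumours with 19 and with 15 libraries, with medians of -4.23 and -4.09. In Ivl tumours 3 and 18 fell. Over all genes 38.9% and 42.3% were called lower in K5/K14 tumours, and 15.5% and 32.7% in Ivl tumours. The Ivl count with 19 libraries is under that share. Among the abundant ones in skin was Myom1, myomesin of the M band, at 94.2 ± 57.1 CPM (SD, n = 4) in skin and 5.38 ± 4.44 CPM (SD, n = 9) in K5/K14 tumours. It fell in K5/K14 tumours by 4.13 on the log2 scale (adjusted p = 0.00050).

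Of 14 myogenic regulators and developmental isoforms, 9 fell and 0 rose in K5/K14 tumours, with a median of -2.97, and 1 fell in Ivl tumours. In the 15 libraries, 9 and 4 of the 13 that could be tested fell. Over all genes 38.9% were called lower in K5/K14 and 15.5% in Ivl tumours with 19 libraries, and 42.3% and 32.7% with the 15. The Ivl counts are thus near or under the shares of all genes. Their most abundant members in skin were Myh8, the perinatal myosin, and Chrna1, a subunit of the acetylcholine receptor of the muscle endplate, at 2.10 ± 1.16 and 1.91 ± 0.989 CPM. In K5/K14 tumours Myh8 fell by 3.65 (adjusted p = 0.023) and Chrna1 fell by 2.37 on the log2 scale (adjusted p = 0.0010).

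Other contractile and stromal lists were measured beside them, and their counts stand beside the 38.9% lower and 23.2% higher of all genes in K5/K14 tumours and the 15.5% and 20.4% in Ivl tumours (42.3% and 23.9%, and 32.7% and 22.2%, with the 15 libraries). Of 10 smooth muscle genes, 5 fell and 1 rose in K5/K14 tumours and 5 fell in Ivl tumours, with medians of -0.83 and -1.53. With the 15 libraries, 5 fell and 1 rose in K5/K14 tumours and 7 fell in Ivl tumours, with medians of -1.08 and -1.98. Acta2, the smooth muscle actin, was at 116 ± 38.3 CPM in skin and 143 ± 81.3 CPM in K5/K14 tumours (adjusted p = 0.55), while Myh11, the smooth muscle myosin, fell by 1.87 on the log2 scale (adjusted p = 0.0060). Of 10 heart muscle genes 2 fell and 3 rose in K5/K14 tumours, and the same numbers in Ivl tumours, with medians of -0.75 and -0.60, and with the 15 libraries 3 fell and 3 rose in each. The numbers that rose, and the numbers that fell in Ivl tumours, are near the shares of all genes. The numbers that fell in K5/K14 tumours are under those shares. Tnnt2, the heart troponin T, rose by 2.28 (adjusted p = 5.8e-05), whereas Actc1, the heart actin, did not pass (adjusted p = 0.22). Myh6, the myosin of the heart's atria, did not exceed 0.21 CPM.

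Of 10 adipocyte genes, 6 fell in K5/K14 and 0 in Ivl tumours, with medians of -3.48 and -1.87. In the 15 libraries 8 fell in K5/K14 tumours, and 6 fell and 1 rose in Ivl tumours, with medians of -3.31 and -4.31. Plin4, a lipid droplet protein, fell by 4.41 on the log2 scale in K5/K14 tumours (adjusted p = 0.0012), and Fabp4, the fatty acid carrier, had a value of 1.05 (adjusted p = 0.30). Of 8 fibroblast genes, 1 fell in K5/K14 and 0 in Ivl tumours, with medians of -0.22 and -1.18. In the 15 libraries 2 and 4 fell, with medians of -0.32 and -1.98. Col1a1 and Col3a1 had values of -0.11 and -0.15 in K5/K14 tumours (adjusted p = 0.89 and 0.85). All 6 keratinocyte genes rose in K5/K14 tumours and 5 in Ivl tumours, with medians of 2.24 and 2.55, and the same numbers with the 15 libraries, with medians of 2.32 and 2.86. Krt14 and Krt10, the most abundant of them in skin, rose by 3.74 and 2.15 in K5/K14 tumours (adjusted p = 2.1e-06 and 0.0027). The part of the higher keratinocyte levels in these results was not tested.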

How the data were processed

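RNA from 19 frozen tissue samples was sequenced from poly(A) RNA with a kit that keeps strand, at facilities the labels name without saying which library was made where. Per the labels and the methods, the authors checked reads with FastQC (0.11.8), trimmed them with Trim Galore, aligned them with HISAT2 (2.1.0) to GRCm38 and counted them per gene with featureCounts (Subread 1.6.3). The deposited values are estimated counts: the authors adjusted the gene counts with ComBat-seq for 2 batches, whose libraries are not named in the sources used here, so they are whole numbers but not raw reads, and p-values treat them as counts. The set of 4 libraries (Ivl 1, 2, 3 and K5 1) was found from the values. The study gives 4 and 15 libraries as the sizes of its batches, sequenced at different times, which are the sizes of the set and of the rest, but the members of each are not named.

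From there, 32031 genes that reached 5 counts in some library were tested, TMM scaling was applied, and edgeR's quasi-likelihood test was fitted to Ivl, K5/K14 and skin together, and to 4 groups for K5 against K14 (R 4.3.3, edgeR 4.0.16), with Benjamini-Hochberg adjustment at 0.05. CPM are counts scaled to 1e6 by the TMM-adjusted library size, except in the check of the set of 4 and in shares of counts, which use the plain total. The count test was also run on simulated data that held no batch-adjusted set of libraries, so that run cannot tell how the set of 4 affects it. Isoform shares were compared by exact permutation tests (scipy). The p-values of the count test come from models across all genes. Alternatives were the 15 libraries, the set of 4 as covariate, DESeq2 (1.42.0), RLE scaling, TMM without the members, other count filters, K5 and K14 apart, the replicate block and leaving out each library. Annotation came from GENCODE M21, which held 34694 of the 34807 gene identifiers, and promoters from RefSeq. Within a group, every pair of libraries differed by more than sampling noise (chi-square over its degrees of freedom was never below 25.9), so none was taken as deposited more than once.

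All 36 members are accounted for. The 10 key members have values in every group, and of the other lists the most abundant pair in skin is named, except for 1 gene that is counted but not reported here. The members and lists were chosen with earlier results of these data known.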

Additional observations from a re-analysis of the deposited data

Results flagged for a closer look

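Within the tumour groups, single libraries stood apart for the muscle genes, by a comparison of the highest or lowest value's gap to its neighbour with the range of the group. Among 44 such comparisons, 15 were past the 95% limit. The muscle genes vary together between libraries, so the comparisons are not independent and their number cannot be set against a chance rate. K14 1 accounted for 11 of them: it was the highest of the 4 K14 tumours in the sum over the 36 genes (1537 CPM, next 431 CPM), and in Acta1 (151.3 CPM), Ckm (38.8 CPM), Myh4 (10.5 CPM), Myh2 (94.1 CPM), Myh7 (0.442 CPM), Mylpf (46.7 CPM), Tnnt3 (77.3 CPM), Tnnt1 (2.29 CPM), Ttn (71.8 CPM) and Des (64.9 CPM).

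In the Ivl group, Ivl 2, of the set of 4, stood apart for Ckm (349 CPM, next 63.5 CPM) and Myh4 (1507 CPM, next 98.9 CPM). In the K5 group, K5 4 stood apart for Tnnt1 (0.536 CPM, next 0.207 CPM), and K5 1 for Myh7 at 0.0159 CPM, which is 1 count against 0 in the other K5 tumours. No skin library stood apart by this measure.

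The effect against skin differed between Ivl and K5/K14 tumours for Cacna1s, by a log2 value of 6.02 with all 19 libraries (edgeR adjusted p = 0.048). With the 15 libraries it was 1.56 (adjusted p = 0.73), and over its alternatives the adjusted p ran from 0.017 to 0.73.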

How the results depend on the processing

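Against skin, the number of members lower in K5/K14 tumours stayed between 26 and 29 over the alternatives that keep or drop the set of 4, change the tool, scaling or filter, and between 25 and 31 (22 to 31 within the 15) when each library was left out. The number higher was 0 to 2 when each library was left out, being 0 without skin 4 and 2 without K14 2. For Ivl against skin, the number lower went from 0 to 15 with the 15 libraries, 2 with the set of 4 as covariate and 1 with DESeq2. It was 0 to 6 when each library was left out (6 without Ivl 2), and within the 15, a choice added after seeing the data, 29 without Ivl 6, 9 without Ivl 4 or Ivl 5, and 12, 13, 14, 15, 16 or 18 without another library. The number higher was 0 to 1, with 1 without skin 1. For Ivl against K5/K14, the number higher went from 1 to 12 with DESeq2, 2 with filterByExpr and 0 with the 15 libraries, the set of 4 as covariate, no filter, K5 and K14 as 2 groups and the replicate block. When each library was left out it was 13 without K14 1, 4 without Ivl 1 or Ivl 5, 3 without Ivl 4 and 0 without any other. Why these counts moved was not tested, beyond the libraries named.

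The replicate numbers do not pair the samples: 9 of 25 same-numbered pairs had a correlation over 0.1 (range -0.33 to 0.21), and 2 of 19 libraries correlated best with their own number. The replicate block left 26 members lower in K5/K14 tumours and 0 in Ivl tumours. It turned the sign of K5 against K14 for Acta1 (0.38), Ckm (0.82), Tnnt3 (0.47), Ttn (0.054) and Des (0.038), none past the threshold.

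When each library was left out, K5 against K14 ran from -3.52 to 3.06 for Acta1, -2.69 to 2.74 for Ckm, -5.62 to 1.17 for Myh2, -1.11 to 0.90 for Mylpf, -2.33 to 0.99 for Tnnt1, -3.15 to 2.97 for Tnnt3, -3.10 to 1.08 for Ttn and -0.70 to 0.78 for Des, each positive value without K14 1. Tnnc1 in K5/K14 tumours ran from -0.0020 (without K14 1, -0.016 within the 15) to 1.4. Ivl against K5/K14 turned for Myh2 (-1.66 with the 15 libraries, -0.89 with the covariate) and Ttn (-0.48 with the 15). Tpm2 ran from -0.41 to 0.073 in Ivl and from -0.45 to 0.027 in K5/K14 tumours, turning without skin 2 (0.0099 within the 15). Within the 15, Tnnt1 in Ivl tumours turned without Ivl 4 (0.10) and Ivl 5 (0.23).

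For the fast shares, differences from skin in percentage points, when each library was left out, ran from -5.13 to -3.09 (troponin I, Ivl), -64.9 to -47.4 (calsequestrin, Ivl), -5.95 to -2.42 (troponin T, K5/K14) and -14.4 to 14.3 (myosin-binding protein C, Ivl). The first 3 lost their call in some of these and with the 15 libraries (-6.70, -74.1 and -2.42), in most cases because the samples left could not reach the threshold; for troponin I they could have when an Ivl tumour was left out. Myosin-binding protein C in Ivl tumours turned to -14.4 with at least 50 counts over the pair. RLE scaling moved the median of all genes from -0.46 to -0.59 (Ivl) and from -0.60 to -0.71 (K5/K14) and turned no member's sign. Depth limits Myh7 and Tnnc2, which had no more than 22 counts in any library.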

Other observations

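Myh3, the embryonic myosin heavy chain that regenerating fibres also make, was at 7.04 CPM in K14 1, at most 1.06 CPM in the other tumours and 0.16 to 0.21 CPM in skin; it was singled out after its values were seen. Myog, the myogenic factor of differentiating muscle cells, stood at 1.01 CPM in that tumour and at 0.51 to 1.76 CPM in skin. Pax7, the factor of muscle stem cells, was at 0.16 CPM in K14 1, 0.15 CPM in Ivl 6, 0.26 to 0.55 CPM in skin and 0 in Ivl 4 and Ivl 5.

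Nppb, the natriuretic peptide on the heart list, had 0.34 to 0.84 CPM in skin and 1.04 to 37.0 CPM in the 15 tumours, while Nppa, its neighbour on that list, did not exceed 0.05 CPM.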
